A study of Mus musculus with 8 samples.

Results

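The mitochondrial genome of the mouse encodes 7 subunits of respiratory complex I, and their mRNAs (mt-Nd1, mt-Nd2, mt-Nd3, mt-Nd4, mt-Nd4l, mt-Nd5 and mt-Nd6) were followed in RNA from serum exosomes. They were taken by symbol from the deposited gene table, together with Gm28438, Gm28439 and Gm10222, 3 pseudogenes on chromosome 1 that copy mt-Nd3, mt-Nd4 and mt-Nd4l. These 10 identifiers stand among 31300 mouse and 20716 canine genes. Exosomes are small membrane vesicles that cells release into blood. The serum came from NCr nu/nu mice, a nude strain that lacks a thymus, and in each of the 4 groups it was pooled. OSCA-40 and OSCA-32 are canine cell lines of osteosarcoma, a bone cancer, and mice of these groups received 100000 cells in 10 µl into the tibia, with serum collected at week 8. PBS mice received 10 µl of phosphate-buffered saline and were likewise sampled at week 8, and week 0 serum was pooled from all mice ahead of any injection. Each group has 2 libraries. No label states that they derive from separate animals, so the tests measure only the spread between libraries, which may be technical.

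Complex I is the first and largest enzyme of the respiratory chain. It takes electrons from NADH, hands them to ubiquinone and pumps protons across the inner mitochondrial membrane. The subunits made inside the mitochondrion form the membrane arm, while the electron-carrying arm and all accessory subunits are encoded in the nucleus and imported. Most mitochondrial genes are read from one strand of the circular genome as long precursor transcripts, and mt-Nd6 is the protein-coding gene of the opposite strand. Mitochondrial RNA is abundant in platelets and other blood cells and is known to occur in vesicle preparations.

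The copies come first because they set how several values can be read. Transcript sequences were taken from GENCODE M21 (GRCm38). Over the 345 bases that Gm28438 has in common with mt-Nd3, the copy differed at 1 base, T3C, counted from 1 at the 5′ end of the transcript and given as the mitochondrial base first. mt-Nd3 (mitochondrial genome, 9459 to 9806, plus strand) then ran 3 bases further than Gm28438 (chromosome 1, 24612775 to 24613119, minus strand). All 294 bases of Gm10222 (chromosome 1, 24612407 to 24612700, minus strand) were identical to mt-Nd4l (mitochondrial genome, 9877 to 10173, plus strand), which was likewise 3 bases longer. All 876 bases of Gm28439 (chromosome 1, 24611535 to 24612410, minus strand) were identical to the start of mt-Nd4 (mitochondrial genome, 10167 to 11544, plus strand), which continued for another 502 bases. The stretches below show where the members of each pair can be told apart, with the differing base or the bases beyond the copy's end in capitals (for mt-Nd4, the first of them).
mt-Nd3, chrM:9459-9498, plus strand: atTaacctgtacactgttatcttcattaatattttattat
Gm28438, chr1:24613080-24613119, minus strand: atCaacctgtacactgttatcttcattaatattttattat
mt-Nd3, chrM:9764-9806, plus strand: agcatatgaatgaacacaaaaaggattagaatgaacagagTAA
Gm28438, chr1:24612775-24612814, minus strand: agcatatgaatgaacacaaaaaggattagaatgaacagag
mt-Nd4l, chrM:10131-10173, plus strand: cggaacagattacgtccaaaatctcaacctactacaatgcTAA
Gm10222, chr1:24612407-24612446, minus strand: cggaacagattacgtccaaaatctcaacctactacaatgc
mt-Nd4, chrM:11003-11062, plus strand: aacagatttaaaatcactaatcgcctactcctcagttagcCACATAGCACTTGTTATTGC
Gm28439, chr1:24611535-24611574, minus strand: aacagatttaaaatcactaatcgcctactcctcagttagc

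Counted in words of 31 bases, 312 of the 318 in mt-Nd3 also occurred in Gm28438, and 264 of the 267 in mt-Nd4l also occurred in Gm10222. For mt-Nd4 it was 846 of 1348, which left 502 of its own. Gm28439 and Gm10222 had 0 words of their own. mt-Nd1 shared 0 words with any other listed mouse transcript. Between 7.4% and 16.8% of the words of mt-Nd2 (136 of 1008), mt-Nd5 (302 of 1794) and mt-Nd6 (36 of 489) recurred in partial copies on chromosomes 2, 4 and 13, which were listed at 8 or less in every library. mt-Nd1 (2751 to 3707), mt-Nd2 (3914 to 4951) and mt-Nd5 (11742 to 13565) lie on the plus strand of the mitochondrial genome and mt-Nd6 (13552 to 14070) on the minus strand, where its end overlaps that of mt-Nd5. The table lists them as ENSMUSG00000064341 (mt-Nd1), ENSMUSG00000064345 (mt-Nd2), ENSMUSG00000064367 (mt-Nd5) and ENSMUSG00000064368 (mt-Nd6), beside ENSMUSG00000064360 (mt-Nd3), ENSMUSG00000064363 (mt-Nd4) and ENSMUSG00000065947 (mt-Nd4l). Whether strand was used in assigning reads is not given, so mt-Nd6 and RNA antisense to it cannot be told apart.

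The deposited values followed these identities. They are whole numbers that behave as TPM over both species together, a relative amount per transcript length with no known depth, and are called levels here. mt-Nd4l was listed at 11 and 0 with OSCA-40, 0 and 47 with OSCA-32, 67 and 80 in PBS and 20 and 0 at week 0. Its copy Gm10222 was listed at 27 and 39 with OSCA-40, 102 and 19 with OSCA-32, 0 and 0 in PBS and 0 and 27 at week 0. In the 3 libraries where mt-Nd4l was listed at 0 the copy held the whole level, and in the 3 where the copy was listed at 0 mt-Nd4l held it. The sums were 38 and 39 with OSCA-40, 102 and 66 with OSCA-32, 67 and 80 in PBS and 20 and 27 at week 0, so that no group had a sum near 0. mt-Nd3 was listed at 18 and 7 with OSCA-40, 0 and 17 with OSCA-32, 14 and 0 in PBS and 0 and 0 at week 0. Gm28438 was listed at 6 and 7 with OSCA-40, 39 and 26 with OSCA-32, 15 and 49 in PBS and 7 and 3 at week 0. The copy thus held between 25.0% and 100% of the mt-Nd3 sum. Gm28439 was listed at 0 in all 8 libraries, and mt-Nd4 held its whole sum.

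**Figure D1:**
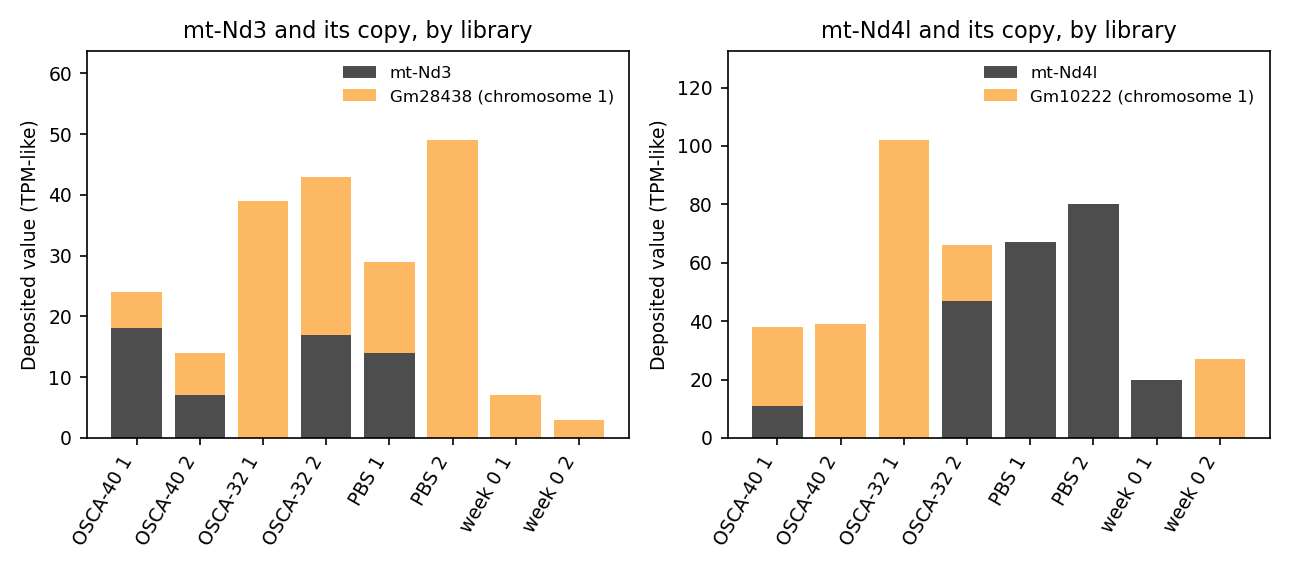
Deposited levels (TPM-like, vertical axis) of mt-Nd3 and mt-Nd4l (grey) stacked with those of their chromosome 1 copies Gm28438 and Gm10222 (orange) in each of the 8 libraries, 2 per group. Within a pair the share changes from library to library, including libraries of 1 group, as in OSCA-32, where Gm10222 is listed at 102 and 19 and mt-Nd4l at 0 and 47.

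For this reason mt-Nd3, mt-Nd4 and mt-Nd4l are described below as sums with their copies, and the other 4 mRNAs as listed. Of the 10 identifiers, 9 passed the filter on low levels (at least 10 in at least 2 libraries), and Gm28439 did not. The filter does not use the groups, but an identifier can pass it through a single group.

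Together the complex I mRNAs made up 0.0692% and 0.0677% of the summed mouse levels with OSCA-40, 0.109% and 0.0789% with OSCA-32, 0.0333% and 0.0395% in PBS and 0.0134% and 0.0156% at week 0. Both tumour groups stood above PBS, and PBS stood above week 0. As deposited the order was different, because canine genes held 68.4% and 70.7% of the library with OSCA-40 and 44.7% and 43.3% with OSCA-32, against 14.7% and 15.2% in PBS and 16.1% and 17.4% at week 0. The deposited sums were 216 and 196 with OSCA-40, 591 and 440 with OSCA-32, 278 and 327 in PBS and 110 and 126 at week 0. Tests were therefore run on levels scaled to the bulk of the genes, with limma over all 7872 tested genes and a Benjamini-Hochberg threshold of 0.05. Without that scaling the median tested mouse gene differed from PBS by -1.53 (log2) with OSCA-40 and by -0.56 with OSCA-32. Canine sequence was not used here, so whether canine mitochondrial RNA was assigned to these mouse genes was not tested. In bulk vesicle RNA, fewer vesicles of a kind and less RNA per vesicle cannot be told apart.

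By subunit, mt-Nd1, whose product borders the ubiquinone site, was listed at 10 and 10 with OSCA-40, 47 and 48 with OSCA-32, 29 and 39 in PBS and 9 and 13 at week 0. The products of mt-Nd2, mt-Nd4 and mt-Nd5 are the large antiporter-like pumping subunits. mt-Nd2 was listed at 26 and 19 with OSCA-40, 75 and 70 with OSCA-32, 38 and 30 in PBS and 15 and 19 at week 0. mt-Nd4 was listed at 35 and 27 with OSCA-40, 67 and 67 with OSCA-32, 37 and 32 in PBS and 16 and 17 at week 0. For both genes OSCA-32 was the highest group with no overlap, and week 0 was the lowest group or touched OSCA-40. mt-Nd5 was listed at 32 and 37 with OSCA-40, 106 and 64 with OSCA-32, 38 and 46 in PBS and 20 and 20 at week 0. The small subunits encoded by mt-Nd3, mt-Nd4l and mt-Nd6 lie at the joint of the membrane arm. The mt-Nd3 sum was 24 and 14 with OSCA-40, 39 and 43 with OSCA-32, 29 and 49 in PBS and 7 and 3 at week 0. mt-Nd6 was listed at 51 and 50 with OSCA-40, 155 and 82 with OSCA-32, 40 and 51 in PBS and 23 and 27 at week 0. As deposited, OSCA-40 and PBS libraries overlapped for mt-Nd4 and mt-Nd6, and for the other 5 both OSCA-40 libraries lay below both PBS libraries. Lying below PBS as deposited was common to most genes: with library totals alone, 84.3% of all tested genes were called lower in OSCA-40 (limma).

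**Figure D2:**
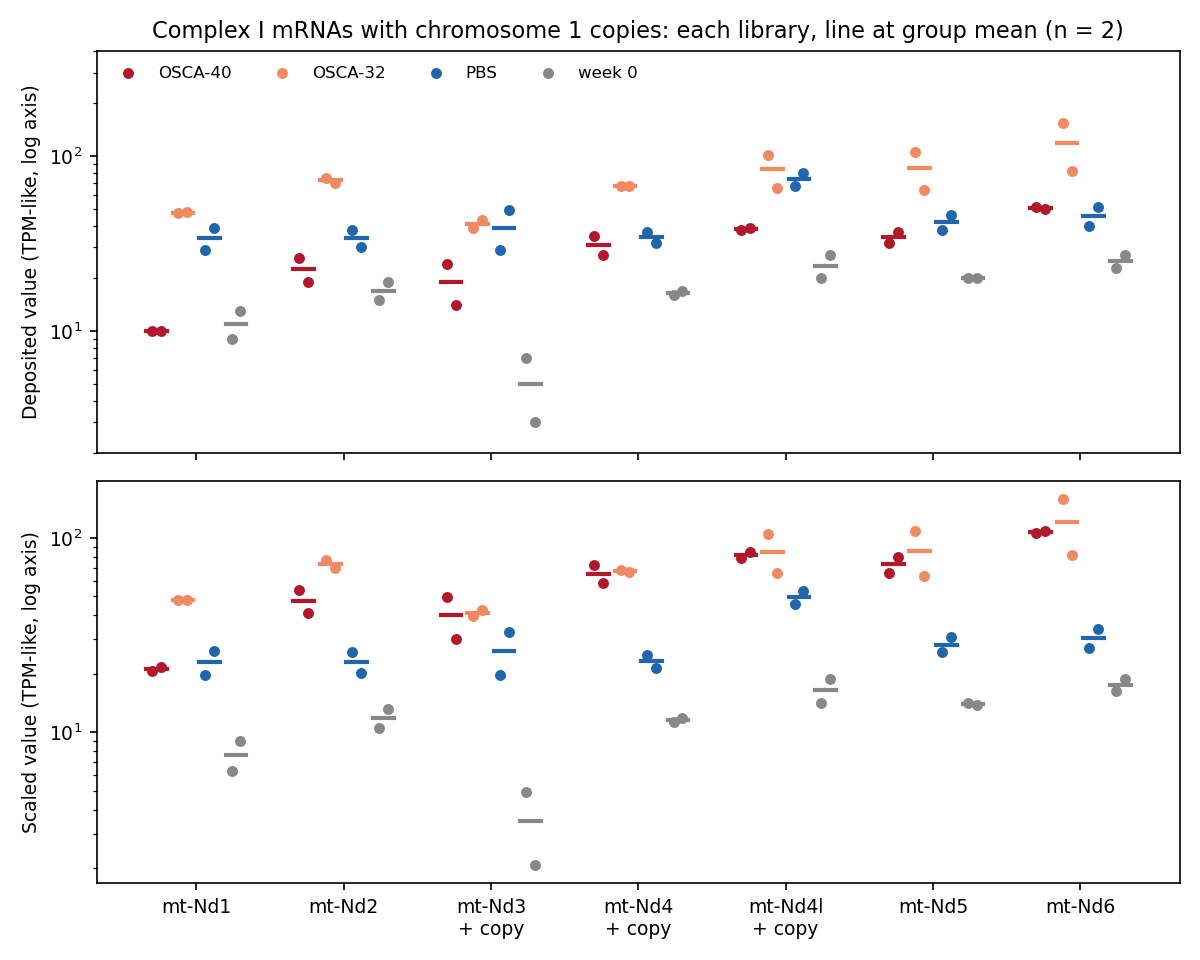
Levels of the 7 complex I mRNAs as deposited (upper panel) and after scaling to the bulk of the genes (lower panel), on log axes; points are libraries, lines are group means (n = 2). As deposited, OSCA-32 is the group with the highest mean for each mRNA, and after scaling the libraries of OSCA-40 and OSCA-32 overlap for 5 of the 7 but not for mt-Nd1, with means of 21.1 in OSCA-40 and 47.8 in OSCA-32, or mt-Nd2, with 47.4 and 73.0.

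Against PBS, the OSCA-32 libraries held more of the complex I mRNAs. With the copies summed, 4 of the 7 rose, 0 fell, and all 7 had a positive log2 fold change, with a median of 1.50. Over all tested genes 1.09% were called in either direction, 0.902% as higher, and the median was 0.00. mt-Nd6 rose by 1.87 ± 0.29 (log2 fold change ± SE; adjusted p = 0.0352, limma). mt-Nd2 rose by 1.64 ± 0.20 (adjusted p = 0.0108, limma), mt-Nd5 by 1.53 ± 0.25 (adjusted p = 0.0425, limma) and mt-Nd4 by 1.50 ± 0.15 (adjusted p = 0.0042, limma). All 4 of these were also above PBS in both libraries as deposited, and the share of all tested genes separated in this way was not determined. mt-Nd1, at 1.05 ± 0.21, did not pass (adjusted p = 0.0872, limma), nor did the sums of mt-Nd4l at 0.73 ± 0.23 and mt-Nd3 at 0.68 ± 0.39. Listed alone, mt-Nd4l had a value of -2.86 ± 2.19, opposite in sign to its sum.

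These calls rested on few libraries. mt-Nd5 and mt-Nd6 each passed without the second OSCA-32 library and lost the call without any of the other 7, including the libraries of week 0 and OSCA-40, which belong to neither group compared. mt-Nd2 lost it without the second PBS library or either OSCA-32 library, and mt-Nd4 without the first OSCA-32 library. The first OSCA-32 library stood at 155 for mt-Nd6 and 106 for mt-Nd5, where the second stood at 82 and 64. Without the filter on low levels, mt-Nd2, mt-Nd5 and mt-Nd6 also lost the call, and mt-Nd5 and mt-Nd6 lost it without a variance trend or with only these groups fitted. With copies summed, the fold changes of all 7 were positive under each alternative run.

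OSCA-40 libraries, set against PBS, gave a similar picture for most of the mRNAs but not for mt-Nd1. With the copies summed, 4 of the 7 rose and 0 fell, 6 had a positive log2 fold change, and the median was 1.01; over all tested genes 6.76% were called in either direction, 4.42% as higher, and the median was -0.02. mt-Nd6 rose by 1.78 ± 0.29 (adjusted p = 0.0108, limma), mt-Nd4 by 1.45 ± 0.15 (adjusted p = 0.0016, limma), mt-Nd5 by 1.34 ± 0.25 (adjusted p = 0.0193, limma) and mt-Nd2 by 1.01 ± 0.20 (adjusted p = 0.0241, limma). mt-Nd1 had a value of -0.10 ± 0.21 (adjusted p = 0.841, limma). The sums of mt-Nd4l, at 0.71 ± 0.23, and mt-Nd3, at 0.59 ± 0.39, did not pass. Among the copies listed alone, Gm10222 passed as higher (adjusted p = 0.0388, limma), where 6.77% of all tested genes were called as listed. Its deposited levels were 27 and 39 against 0 and 0 in PBS. Its sum with mt-Nd4l was lower than PBS as deposited, and higher after scaling without passing. The comparisons of both lines use the same PBS libraries and are not independent of each other.

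All rises in the OSCA-40 comparison are relative to the bulk of the genes. With library totals alone, 0 of the 7 were higher and 4 were lower (mt-Nd1, mt-Nd2 and the sums of mt-Nd3 and mt-Nd4l), while 85.5% of all tested genes were called and 84.3% were lower. mt-Nd2, mt-Nd4 and mt-Nd5 then took the opposite sign, at -0.60, -0.17 and -0.29, and mt-Nd6 stood at 0.14. mt-Nd4 kept its scaled call without each of the 8 libraries in turn. Without the filter mt-Nd2, mt-Nd5 and mt-Nd6 lost theirs, as did mt-Nd2 and mt-Nd5 without a variance trend and mt-Nd2 with only these groups fitted. Of single libraries, mt-Nd6 lost it without the first PBS library, mt-Nd5 without either PBS library or the second OSCA-40 library, and mt-Nd2 without either PBS library, the first OSCA-32 library or the first OSCA-40 library.

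**Figure D3:**
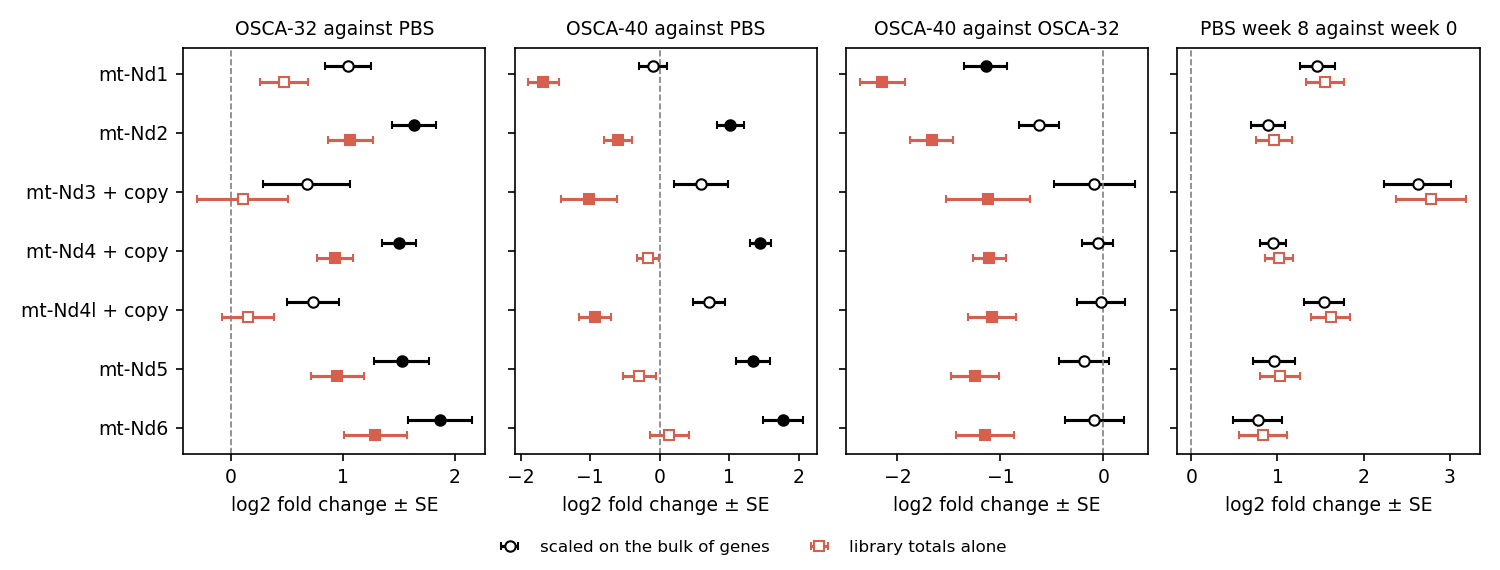
log2 fold changes ± SE (limma) of the 7 complex I mRNAs in 4 comparisons, scaled to the bulk of the genes (circles) or with library totals alone (squares); filled symbols passed an adjusted p of 0.05. In OSCA-40 against PBS the scaled mt-Nd1 lies at -0.10 and the other 6 between 0.59 and 1.78.

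Between the tumour lines, mt-Nd1 was the member that passed the test. It fell by 1.14 ± 0.21 (log2 ± SE) in OSCA-40 relative to OSCA-32 (adjusted p = 0.0372, limma), with 10 and 10 against 47 and 48 as deposited. Of all tested genes 2.73% were called as listed and 2.76% with copies summed, 0.991% as lower. mt-Nd2, at -0.63 ± 0.20, did not pass (adjusted p = 0.172, limma), and the other 5, copies summed, lay between -0.19 and -0.02. The call of mt-Nd1 was lost without any 1 of the 6 libraries taken at week 8, and also without a variance trend or with only these groups fitted; the sign was the same in each. With library totals alone all 7 were lower in OSCA-40, where 59% of all tested genes were called and 58.3% were lower. A fall on scaled levels was not particular to mt-Nd1. Of the 6 other mitochondrially encoded mRNAs, as listed, 2 were also called lower, mt-Co1 and mt-Co2 (limma). The 6 ranged from -3.07 to 3.89.

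A ratio within a library does not depend on scaling. The mt-Nd1 level was divided by the mean of the other 5 complex I mRNAs of its strand. It stood at 0.323 and 0.368 times that mean with OSCA-40, against 0.604 and 0.774 with OSCA-32, 0.694 and 0.823 in PBS and 0.577 and 0.756 at week 0. The 2 OSCA-40 libraries were thus the lowest of the 8. The other group with low mt-Nd1 levels, week 0, had low levels of all 7 mRNAs. mt-Nd6, on the opposite strand, stood at 1.85 and 2.05 times the mean of the 6 others with OSCA-40 and at 2.13 and 1.37 times with OSCA-32. It stood at 1.01 and 1.11 times in PBS and 1.59 and 1.64 times at week 0, so PBS was the lowest group and OSCA-32 spanned week 0. These ratios were chosen after the values were seen and were not tested.

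**Figure D4:**
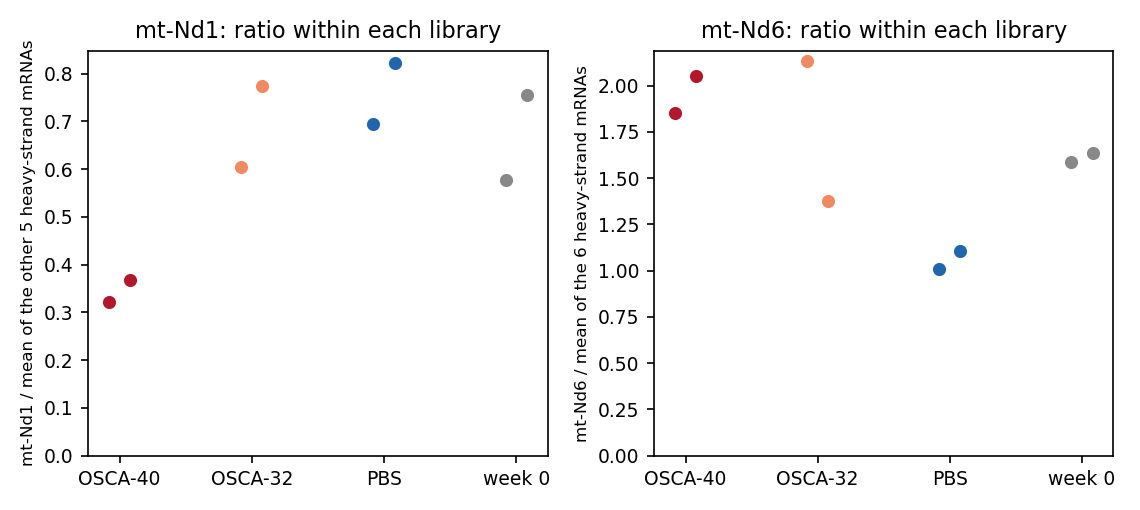
Level of mt-Nd1 over the mean of the other 5 complex I mRNAs of its strand (left), in each library. On the right, mt-Nd6 is set over the mean of the 6 complex I mRNAs of the opposite strand. Copies are summed, and axes start at 0. The 2 OSCA-40 libraries have the lowest mt-Nd1 ratios, 0.323 and 0.368, and the 2 PBS libraries the lowest mt-Nd6 ratios, 1.01 and 1.11.

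The PBS libraries of week 8 had higher levels of each complex I mRNA than the week 0 libraries, but the test across all genes called 0 of the 7 (0.165% of all tested genes called, limma). All 7 had an unadjusted p under 0.05, as did 4.73% of all tested genes, and all 7 fold changes were positive. The values were 2.63 ± 0.39 for the mt-Nd3 sum (adjusted p = 0.0963, limma), 1.54 ± 0.23 for the mt-Nd4l sum and 1.46 ± 0.21 for mt-Nd1 (adjusted p = 0.0811, limma). The remaining 4 lay between 0.77 and 0.96. Of the 6 other mitochondrially encoded mRNAs, as listed, 3 were called higher, mt-Co1, mt-Co2 and mt-Cytb (limma). All 6 had positive fold changes. For each of the 7 both PBS libraries were above both week 0 libraries as deposited. The share of all tested genes separated in this way was not determined. With library totals alone, 58% of all tested genes had a positive fold change. The canine share was close in these groups, and the scaling moved the median mouse gene by 0.05 only. Time, injection and collection differ together between these groups and cannot be told apart.

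The order of the mRNAs within a library was also read, since the levels are per length. mt-Nd6 was the highest with OSCA-40, averaging 50.5 ± 0.707 (SD, n = 2), followed by the mt-Nd4l sum at 38.5 ± 0.707. mt-Nd5 at 34.5 ± 3.54 and mt-Nd4 at 31 ± 5.66 overlapped, as did mt-Nd2 at 22.5 ± 4.95 and the mt-Nd3 sum at 19.0 ± 7.07, and mt-Nd1 was the lowest at 10 in both libraries. With OSCA-32 mt-Nd6 averaged 118.5 ± 51.6, mt-Nd5 85.0 ± 29.7 and the mt-Nd4l sum 84.0 ± 25.5, which overlapped with one another. mt-Nd1 at 47.5 ± 0.707 and the mt-Nd3 sum at 41.0 ± 2.83 were the lowest there. In PBS the mt-Nd4l sum led at 73.5 ± 9.19, mt-Nd6 came next at 45.5 ± 7.78, and the other 5 averaged between 34.0 and 42.0, each overlapping its neighbour in the order. At week 0 mt-Nd6 at 25.0 ± 2.83 and the mt-Nd4l sum at 23.5 ± 4.95 led, and the mt-Nd3 sum at 5.0 ± 2.83 was last.

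Set among 21474 protein-coding mouse genes, the 7 mRNAs ranked high in most libraries. With OSCA-40 between 92.2% and 98.7% of coding genes were listed below each of them, and with OSCA-32 between 96.5% and 99.1%. The range was 92.9% to 97.5% in PBS and 24.3% to 92.3% at week 0, where the lowest was the mt-Nd3 sum at 3. The complex I mRNAs, with copies, made up 43.1% and 41.2% of a mitochondrial total with OSCA-40, 49.1% and 44.0% with OSCA-32, 44.3% and 42.7% in PBS and 45.6% and 47.5% at week 0. That total held all 13 mitochondrially encoded mRNAs and the unprocessed pseudogenes in the same stretch of chromosome 1 as the 3 copies. As listed, the 6 other mRNAs alone summed to 197 and 200 with OSCA-40, 546 and 320 with OSCA-32, 251 and 395 in PBS and 65 and 102 at week 0. Counted in this way, the share was lower in both OSCA-40 libraries than in either OSCA-32 library, and lower in both PBS libraries than in either week 0 library. The order of the shares without the further pseudogenes was not determined. The total it was taken from differed by group, at 501 and 476 with OSCA-40, 1203 and 1001 with OSCA-32, 627 and 766 in PBS and 241 and 265 at week 0.

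The nuclear-encoded partners in complex I were read from lists of subunits and assembly factors. Of 7 core subunits of the electron-carrying arm 3 were tested, and of 30 accessory subunits 11. Against PBS, 0 of these 14 passed as higher in either tumour group (limma), where 4.42% of all tested genes did so with OSCA-40 and 0.902% with OSCA-32, so that a count of 0 is near the background. In OSCA-40 1 core and 1 accessory subunit fell, and in OSCA-32 0 core subunits and 1 accessory subunit did (limma). An unadjusted p under 0.05 was reached by 3 core subunits and 1 accessory subunit with OSCA-40, the core subunit Ndufs1 among them as higher, and by 1 of each with OSCA-32. Over all tested genes, 20.8% reached it with OSCA-40 and 10.4% with OSCA-32. The median log2 fold change was -0.94 for the core and -0.02 for the accessory subunits with OSCA-40, and -0.47 and 0.06 with OSCA-32. Ndufs7, which carries an iron-sulphur cluster next to the ubiquinone site, was listed at 17 and 13 with OSCA-40 and 86 and 96 in PBS and fell by 0.94 ± 0.21 (adjusted p = 0.0411, limma). Ndufs7 with OSCA-32 was listed at 53 and 36 and did not pass (-0.47 ± 0.21). Ndufv1, which binds NADH, was listed at 3 and 2 with OSCA-40 and 17 and 17 in PBS and did not pass (-1.01 ± 0.29). Ndufs1, the largest core subunit, stood at 0.37 ± 0.11 with OSCA-40 and 0.10 ± 0.11 with OSCA-32 and passed in neither.

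Ndufb2, an accessory subunit of the membrane arm, was listed at 34 and 28 with OSCA-40, 74 and 71 with OSCA-32 and 468 and 541 in PBS. It fell by 2.36 ± 0.11 with OSCA-40 (adjusted p = 2.5e-05, limma) and by 2.20 ± 0.11 with OSCA-32 (adjusted p = 7.0e-05, limma), and the median accessory subunit was listed at 6 in both PBS libraries. Ndufa7 and Ndufa9, at 0.52 ± 0.31 and 0.48 ± 0.30 with OSCA-40, and Ndufb10 and Ndufa1, at -0.59 ± 0.27 and 0.18 ± 0.15 with OSCA-32, did not pass. Of 17 assembly factors 7 were tested, and 0 passed in either direction in any of the 4 comparisons (limma; 1 had an unadjusted p under 0.05 in OSCA-40 against PBS). With 6.77% of all tested genes called in OSCA-40 against PBS, 1.09% in OSCA-32 against PBS, 2.73% between the lines and 0.165% in PBS against week 0, that count is near the background. The gene with the low unadjusted p was Acad9, an acyl-CoA dehydrogenase family protein needed for assembly, at 0.19 ± 0.05 with OSCA-40. The others named by rule were Timmdc1 at -0.43 ± 0.28 and Ndufaf8 at 0.46 ± 0.44 with OSCA-40, and Tmem126b at 0.28 ± 0.15, Nubpl at 0.25 ± 0.14 and Tmem70 at -0.41 ± 0.30 with OSCA-32. Of both nuclear subunit lists, 0 passed between the lines or between PBS and week 0 (limma), with an unadjusted p under 0.05 for 1 core and 1 accessory subunit between the lines and for 2 accessory subunits between PBS and week 0. Over all tested genes, an unadjusted p under 0.05 was reached by 20.8% in OSCA-40 against PBS. The share was 16.4% between the lines and 4.71% between PBS and week 0. The difference between mitochondrially and nuclear-encoded subunits was not tested.

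**Figure D5:**
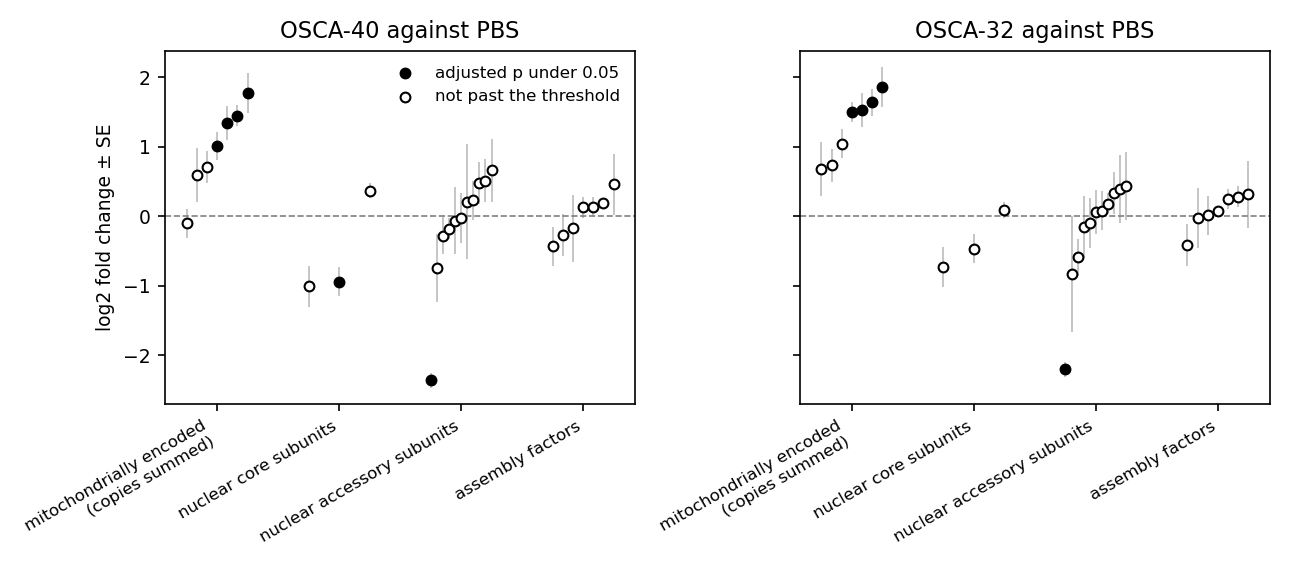
log2 fold changes ± SE (limma, scaled to the bulk of the genes) against PBS of the 7 mitochondrially encoded complex I mRNAs, 3 nuclear core subunits, 11 accessory subunits and 7 assembly factors, each point a gene and filled where the adjusted p was under 0.05. The filled points of the mitochondrial column lie between 1.01 and 1.87, and those of the nuclear columns, Ndufs7 and Ndufb2, lie below 0.

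The genes whose profile over the 8 libraries was most like the mean of mt-Nd1, mt-Nd2, mt-Nd5 and mt-Nd6 were ranked by the root mean square difference of centred log2 scaled levels. The closest was mt-Cytb, of complex III, at 0.26, followed by mt-Co1, of complex IV, at 0.28. Then came Gm3476 at 0.32, Ttyh1, a membrane protein of the tweety family, at 0.46 and Gm20594 at 0.46. A flat profile would stand at 0.98. Among the members themselves mt-Nd1 was the farthest of the 4, at 0.42, and mt-Nd4 stood at 0.25, whereas mt-Nd3 and mt-Nd4l listed alone stood at 1.89 and 2.80. Gm20594 (chromosome 6) was listed at 895 and 780 with OSCA-40, 1170 and 1092 with OSCA-32, 613 and 686 in PBS and 372 and 358 at week 0. Of its 419 words of 31 bases, 42 also occur in the mitochondrial 16S ribosomal RNA mt-Rnr2, which was not used here because no row carried its identifier.

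Markers of blood cells and vesicles were read beside these values, and their part in the complex I values was not tested. Sums are as deposited, and tests are scaled to the bulk of the genes. Over all tested genes, an unadjusted p under 0.05 was reached by 20.8% in OSCA-40 against PBS. The share was 10.4% in OSCA-32 against PBS and 4.71% in PBS against week 0. All 8 platelet markers were listed at 1 or more in every library, and their summed level was 210 and 183 with OSCA-40, 174 and 147 with OSCA-32, 141 and 116 in PBS and 111 and 100 at week 0. Most of that sum was Pf4 and Tmsb4x. Pf4 was listed at 85 and 69 with OSCA-40 and 39 and 30 in PBS, and Tmsb4x at 95 and 88 against 43 and 42. Itga2b went the other way as deposited, at 11 and 8 with OSCA-40 and 29 and 18 in PBS. Gp9, Gp1bb and Tubb1 were likewise lower in both OSCA-40 libraries than in PBS, and Ppbp and Treml1 overlapped or tied. Of the 4 platelet genes tested, 3 rose against PBS with OSCA-40, where 6.77% of all tested genes were called, and 1 with OSCA-32, where 1.09% were. Ppbp, among the 3, passed the filter only through the OSCA-32 libraries, at 14 and 10. Gp9, Gp1bb, Tubb1 and Treml1 did not pass it, so the count and the median leave them out. The platelet median log2 fold change was 2.14 with OSCA-40 and 1.00 with OSCA-32, and 0 passed in PBS against week 0 (limma; 0 had an unadjusted p under 0.05). Of the 8 erythroid markers 6 were tested, and their sum was 259 and 286 with OSCA-40, 263 and 279 with OSCA-32, 317 and 352 in PBS and 450 and 489 at week 0. Alas2 was listed at 0 in 1 OSCA-32 library. After scaling, the erythroid median was 1.06 against PBS with OSCA-40, opposite in direction to the deposited sums, with 1 called higher and 5 of 6 at an unadjusted p under 0.05. With OSCA-32 the median was 0.15 and 0 were called (limma; 1 at an unadjusted p under 0.05). In PBS against week 0 the erythroid median was -0.34 with 1 called lower, where 0.165% of all tested genes were called in either direction (limma). All 7 vesicle markers were listed at 1 or more throughout, with a sum of 48 and 42 with OSCA-40, 143 and 153 with OSCA-32, 271 and 255 in PBS and 255 and 301 at week 0. Most of that sum was the tetraspanin Cd9, at 29 and 26 with OSCA-40, 106 and 117 with OSCA-32, 208 and 192 in PBS and 198 and 234 at week 0. After scaling, the vesicle median against PBS was -0.44 with OSCA-40, where Cd9 alone of 5 tested fell (-1.20 ± 0.11). It was -0.27 with OSCA-32, where 0 passed (limma; 1 had an unadjusted p under 0.05), and 0 passed in PBS against week 0 (limma; 0 had an unadjusted p under 0.05).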

How the data were processed

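Libraries came from exosome RNA (ExoQuick enrichment, SeraMir ExoRNA extraction, Clontech stranded pico-input preparation, per the labels' protocols). The tools kallisto 0.43.0, Trimmomatic 0.33.0 and FastQC 0.11.5 are named in the submitters' processing notes, with CanFam3.1 and GRCm38.p5 as builds. No source used here gives the index, annotation or filters. The deposited whole numbers are treated as a score: libraries sum to 977106 to 989183, nearly equal totals that counts would not have, so the values behave as TPM made whole. Over coding genes their rank correlation with transcript length was 0.108 to 0.160 per library (across genes, which are not replicates). Depth is unknown, and no interval or floor is given.

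Genes at 10 or more in at least 2 libraries were kept (7655 mouse, 217 canine). Scaling used an unweighted trimmed mean of log ratios, with the first library of week 0 as base and 30% of ratios and 5% of levels trimmed at each end. limma 3.58.1 (R 4.3.3) was fitted on log2(scaled level + 1), a scale that understates changes of low genes, with 4 group means, 4 residual degrees of freedom and a variance trend. Benjamini-Hochberg adjustment was made within each of 4 comparisons. A second fit replaced mt-Nd3, mt-Nd4 and mt-Nd4l by their sums with the copies. The procedure was tested on simulated data. Across the 4 comparisons it recovered 18 to 32 of 100 genes changed 2-fold and 54 to 67 of 100 changed 4-fold. It also called 1 to 6 other genes. A gene that did not pass may thus have changed.

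Sequences and names came from GENCODE M21, which held 31171 of the 31300 mouse identifiers. Sequences were handled in Python 3.11.15 with Biopython 1.88. Named genes were the members, nuclear complex I genes past the threshold or with the 3 smallest p per list against PBS, and the 5 most similar profiles. Members and lists were chosen with earlier results of these data known. Alternatives covered scaling, the filter, pseudocounts of 0.25 and 4, the variance trend, the groups fitted, a replicate block and each library left out; adding other partial copies was chosen after seeing the data. The level of 1 erythroid marker is not reported here.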

Additional observations from a re-analysis of the deposited data

Results flagged for a closer look

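The response of mt-Nd1 differed between the tumour lines by the test of that difference itself. Its log2 fold change in OSCA-40 against OSCA-32 was -1.14 ± 0.21 (adjusted p = 0.0372, limma), with 10 and 10 in OSCA-40 libraries and 47 and 48 in OSCA-32 libraries as deposited. It was lower in both OSCA-40 libraries. The other 6 complex I mRNAs, with copies summed, did not pass. Outside complex I, 2 of the 6 other mitochondrially encoded mRNAs, as listed, were called lower as well (limma). Of all tested genes 2.73% were called. The call of mt-Nd1 was lost without a variance trend or with only these groups fitted. It also depended on single libraries of week 8, as given above, while the sign stayed the same.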

How the results depend on the processing

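Of 900 refitted values of single complex I genes, 803 kept their direction and side of the threshold, 61 lost a call, 14 gained one and 22 took the opposite sign. Most of these values belong to genes and comparisons that were not called in the main fit and so had no call to lose. Sums with copies count some mRNAs again. Calls over the whole table numbered 86 in OSCA-32 against PBS, 533 in OSCA-40 against PBS, 215 in OSCA-40 against OSCA-32 and 13 in PBS against week 0. In that order of comparisons, library totals alone gave 1353, 6725 and 4638 for those with a tumour line. No filter gave 2303, 1726 and 2 for those after OSCA-32 against PBS. A mean of at least 50 gave 131 for OSCA-32 against PBS and 24 for PBS against week 0. No variance trend gave 313, 113 and 5 for those after OSCA-32 against PBS, and fitting only the groups compared gave 46, 312, 80 and 2. Leaving out each library gave 38 to 86, 277 to 527, 70 to 171 and 2 to 10.

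Of the complex I mRNAs, 4 were higher in OSCA-32 than PBS, both as listed and with copies summed. The number was 1 with no filter, 1 with a mean of at least 50 (which removes members), 2 with no variance trend, 2 with only the groups compared and 0 to 3 with a library left out. In OSCA-40 against PBS, 5 as listed and 4 with copies summed were higher. It was 1 and 0 with library totals alone, 1 with no filter, 1 with a mean of at least 50, 2 with no variance trend, and 1 to 5 as listed and 1 to 4 with copies summed when a library was left out. Library totals alone made 3 as listed and 4 with copies summed lower. In OSCA-40 against OSCA-32, 1 was lower: 6 as listed and 7 with copies summed with library totals alone, 0 with a mean of at least 50, no variance trend or only the groups compared, and 0 to 1 with a library left out. In PBS against week 0, 1 with copies summed (mt-Nd4l) was higher with a mean of at least 50.

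Opposite signs (log2) with library totals alone came in OSCA-40 against PBS for mt-Nd2 (-0.60), mt-Nd4 (-0.17, also with its copy), mt-Nd5 (-0.29) and the sums of mt-Nd3 (-1.02) and mt-Nd4l (-0.93), and in OSCA-40 against OSCA-32 for Gm10222 (-0.45). The others came with a library left out and concern values that were not called. In OSCA-32 against PBS the range was -1.70 to 2.47 for mt-Nd3 as listed and -0.030 to 1.56 for Gm28438. For mt-Nd1, OSCA-40 against PBS, it was -0.30 to 0.083, and for Gm28438 in that comparison -1.21 to 0.38. In OSCA-40 against OSCA-32 it was -0.21 to 0.098 for mt-Nd4, listed or summed, -3.30 to 2.28 for mt-Nd4l as listed, -0.57 to 0.19 for mt-Nd5, -0.56 to 0.38 for mt-Nd6 and -0.595 to 1.80 for Gm10222. There the sums ranged over -0.44 to 0.26 for mt-Nd3 and -0.35 to 0.30 for mt-Nd4l. Adding partial copies ended the call of mt-Nd5 in OSCA-32 against PBS (1.36). The causes were not tested.

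Replicate numbers did not pair the libraries: deviations of same-numbered libraries correlated at -0.06 to 0.01 across genes. With a replicate block, OSCA-40 against OSCA-32 gave 143 calls, PBS against week 0 gave 6, and 2 complex I mRNAs were higher in OSCA-32 than PBS, with mt-Nd5 and mt-Nd6 no longer called. Groups of 2 and unknown depth limit the precision of levels near 10.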

Other observations

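Factors that transcribe, process or stabilise mitochondrial RNA were also read. Of 22 such genes 8 were tested, and 0 passed in any of the 4 comparisons (limma). Of all tested genes 6.77% were called in OSCA-40 against PBS and 1.09% in OSCA-32 against PBS, so that this count is near the background. An unadjusted p under 0.05 was reached by 2 in OSCA-40 against PBS and by 1 in OSCA-32 against PBS. Over all tested genes the shares were 20.8% and 10.4%. Their median log2 fold change was 0.17 with OSCA-40 and 0.02 with OSCA-32. Mterf3, a termination-factor family protein, was listed at 158 and 171 with OSCA-40 and 414 and 324 in PBS, lower as deposited. After scaling to the bulk of the genes, its log2 fold change with OSCA-40 was positive, at 0.49 ± 0.13. Grsf1, an RNA granule protein, stood at 0.56 ± 0.18 with OSCA-40 and 0.34 ± 0.18 with OSCA-32 on that scale. Fastk, of a family of mitochondrial RNA-binding proteins, was listed at 1 and 2 with OSCA-40, 2 and 3 with OSCA-32 and 11 and 11 in PBS, with values of -1.06 ± 0.45 and -1.27 ± 0.45. Tfb2m, which melts the promoter for the mitochondrial RNA polymerase, stood at 0.65 ± 0.34 with OSCA-32.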
